A study of Mus musculus with 4 samples.

Results

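Bile acids that reach the gut lumen are taken back up by a relay of proteins, and the same molecules signal to the cells that carry them. The apical transporter encoded by Slc10a2 brings them in with sodium, the cytosolic protein Fabp6 binds them, and the partners Slc51a and Slc51b pass them out across the basolateral membrane. Inside the cell they activate the nuclear receptor FXR, encoded by Nr1h4, whose textbook targets in the ileum include Fabp6, Slc51a, Slc51b, the corepressor gene Nr0b2 and the hormone gene Fgf15. Active uptake is best known from the ileum, whereas the colon receives the bile acids that escape it.

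The 10 genes described here are Slc10a2, Fabp6, Slc51a, Slc51b, Nr1h4, Nr0b2, Fgf15, Abcc2, Abcc3 and Gpbar1, found by gene symbol among 31227 rows of a count table from colonic epithelial cells. They were chosen by their role in bile acid handling at a time when the CPM of these libraries (counts scaled to sequencing depth) were known. The differences between genotypes are therefore given as descriptions, with their standard errors (SE) and without p-values. All 10 had a row, and 8 had enough counts to enter the test over all genes; Nr0b2 and Fgf15 did not.

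RNA was sequenced from 2 libraries of mice with an epithelial knockout of Smad4 (Smad4 KO, replicates 1 and 2) and 2 libraries of WT mice (replicates 1 and 3). Every mouse was 8 to 10 weeks old and had been given 3.5% dextran sulfate sodium (DSS), which injures the colonic epithelium, in its drinking water for 5 days, with killing on day 7. Libraries without DSS were not analysed here, and the values compare genotypes under DSS. The sources used here do not give the promoter that drove the deletion, the segment of colon or whether each library came from a separate mouse. Test results thus measure the spread between these libraries alone, and that spread may be technical.

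The KO libraries held 61260099 and 67927291 counts and the WT libraries 56018009 and 42577920, so that 1 count stood for 0.0150 to 0.0229 CPM. Smad4 itself had 51.5 and 41.1 CPM in KO and 152 and 180 CPM in WT. Of 15838 tested genes, 15.2% were called between the genotypes by edgeR at an adjusted p under 0.05, with 8.83% called higher and 6.40% called lower in KO. Those calls were 1398 higher and 1014 lower, against 1232 higher and 1211 lower when counts were scaled by library totals alone. Among the 8 tested bile acid genes the same fit called 4 higher and 1 lower. Because this contrast was known when the genes were chosen, nothing is read from that count. Statements below that a call was kept or lost describe refits of the same libraries and are not independent evidence. The libraries of the genotypes did not overlap for 6 of the 8, where 59.4% of all tested genes showed no overlap. The median log2 fold change was 0.26 over the 8 and 0.01 over all tested genes. In these bulk samples fewer cells of a type and less RNA per cell cannot be told apart.

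**Figure D1:**
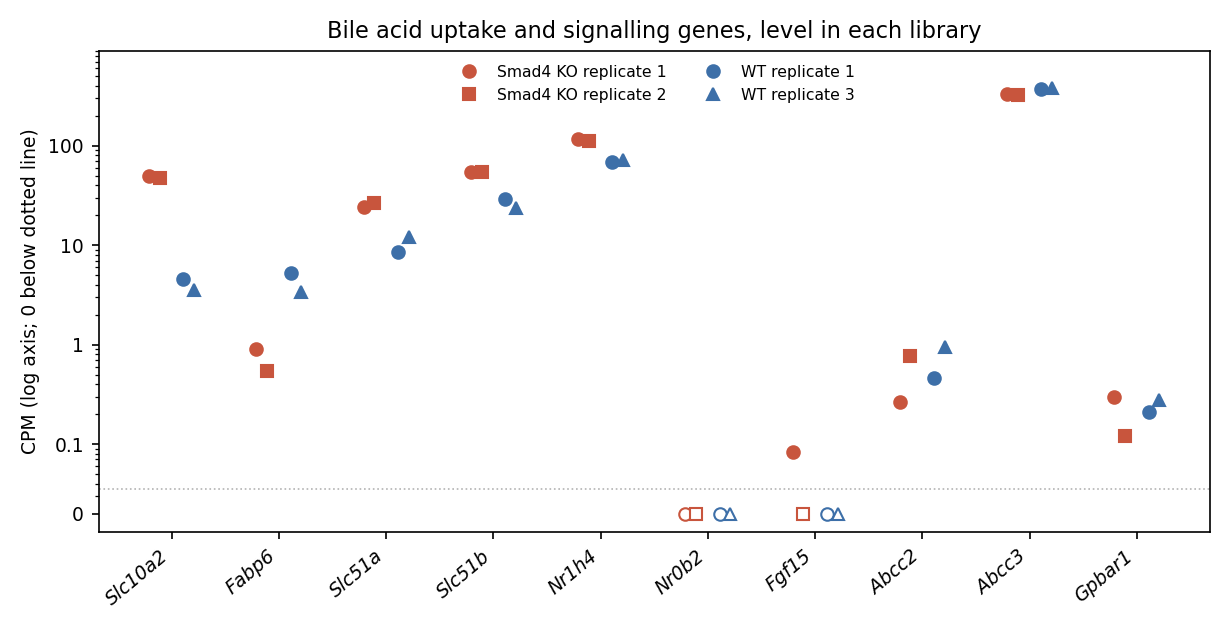
CPM of each bile acid gene in each library on a log axis, with Smad4 KO left of WT and open symbols below the dotted line for a count of 0. Slc10a2 lies at 49.9 and 47.8 CPM in KO against 4.60 and 3.55 CPM in WT, while Fabp6 lies lower in KO and Nr0b2 is at 0 throughout.

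The uptake transporter and its cytosolic partner moved in opposite directions. Their promoter windows, together with those of the basolateral exporter genes, are shown because these are the members that rose or fell most. Each runs from 250 bases before to 50 bases after the start site in RefSeq on GRCm38.p6, on the minus strand and written 5′ to 3′, and capitals mark a match to either of 2 motifs. Slc10a2 lies at chr8:5105238-5105537, Fabp6 at chr11:43601513-43601812, Slc51a at chr16:32487830-32488129 and Slc51b at chr9:65422724-65423023.
Slc10a2: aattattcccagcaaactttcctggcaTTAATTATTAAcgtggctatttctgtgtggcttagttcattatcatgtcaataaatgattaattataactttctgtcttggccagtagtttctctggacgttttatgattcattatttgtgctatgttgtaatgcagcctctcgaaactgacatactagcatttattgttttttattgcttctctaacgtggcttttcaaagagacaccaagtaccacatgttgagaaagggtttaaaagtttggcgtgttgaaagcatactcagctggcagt
Fabp6: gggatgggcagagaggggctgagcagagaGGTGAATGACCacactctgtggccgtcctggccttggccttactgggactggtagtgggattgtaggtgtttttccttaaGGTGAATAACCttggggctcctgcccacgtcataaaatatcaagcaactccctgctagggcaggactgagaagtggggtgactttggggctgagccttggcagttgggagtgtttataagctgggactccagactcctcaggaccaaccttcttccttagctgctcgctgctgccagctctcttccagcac
Slc51a: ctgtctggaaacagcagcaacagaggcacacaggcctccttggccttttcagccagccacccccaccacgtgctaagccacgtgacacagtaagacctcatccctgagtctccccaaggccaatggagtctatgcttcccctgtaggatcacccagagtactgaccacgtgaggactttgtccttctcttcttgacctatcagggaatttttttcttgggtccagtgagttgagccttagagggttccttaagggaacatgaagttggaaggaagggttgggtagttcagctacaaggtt
Slc51b: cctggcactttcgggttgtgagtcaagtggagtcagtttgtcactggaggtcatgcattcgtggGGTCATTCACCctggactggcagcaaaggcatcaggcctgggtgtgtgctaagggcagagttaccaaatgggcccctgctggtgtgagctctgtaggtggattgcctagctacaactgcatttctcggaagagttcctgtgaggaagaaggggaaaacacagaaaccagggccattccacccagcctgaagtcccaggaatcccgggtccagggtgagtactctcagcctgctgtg

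The first motif was the inverted repeat that FXR prefers, called IR-1. Spelled strictly as AGGTCANTGACCT, which reads the same on both strands, it matched 3 of 32851 promoter windows and none of the 8 windows found for these genes (Fgf15 and Abcc3 had none in the table). A relaxed form, GGTNANTNACC, was set after the sequences had been seen and matched 0.262% of all windows. It occurs in the Fabp6 window at positions -221 to -211 and again at -141 to -131, and in the Slc51b window at -186 to -176, counted from the start site. The second, the core of the HNF1 site, TTAATNATTAA, matched 0.122% of all windows and lies at -223 to -213 in Slc10a2. It too was chosen after the sequence had been seen. Matches to letters are descriptions and show no binding. The Nr1h4 window, chr10:89506609-89506908, lies inside the gene as annotated by GENCODE M21 (89454234 to 89533585, minus strand). The upstream end of that gene was therefore not searched for any motif.

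Further motifs were searched on both strands because the study concerns Smad4 and its title names Yap. The palindrome GTCTAGAC, a Smad binding sequence, matched 0.213% of all windows and none of the 8. The CAGA box CAGACA, which Smad proteins also bind, matched 21.04% of all windows and occurs in those of Slc51a (-249 to -244) and Abcc2 (-114 to -109), both on the opposite strand. The TEAD motif CATTCC, recognised by the partners of Yap, matched 14.7% and occurs in Slc51b (-14 to -9, overlapping no other match) and Gpbar1 (33 to 38). TCAAGGTCA, the site of the nuclear receptor LRH-1, matched 0.423% and none of the 8.

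**Figure D2:**
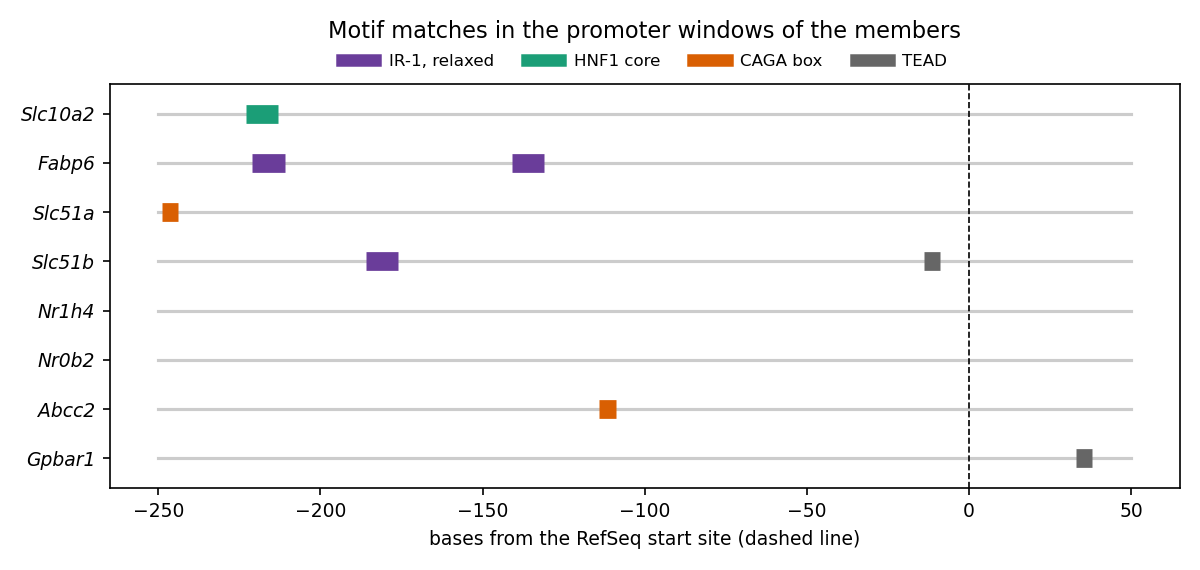
Positions of motif matches in the 8 promoter windows, in bases from the RefSeq start site, with a grey line for each window and a coloured block for each match. The relaxed IR-1 motif lies in the windows of Fabp6 (2 matches) and Slc51b (1 match), and the HNF1 core lies in that of Slc10a2.

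Slc10a2 (ENSMUSG00000023073), the apical uptake transporter, is at 5083219 to 5105351 on chromosome 8, minus strand (GRCm38, as annotated by GENCODE M21). It had 49.9 and 47.8 CPM in KO (3002 and 3189 counts) and 4.60 and 3.55 CPM in WT (261 and 155 counts). Both KO libraries lay far above both WT libraries, and the pairs within a genotype were close. Its mean level was 48.9 ± 1.51 CPM in KO and 4.08 ± 0.740 CPM in WT (SD, n = 2 each). The fitted difference was 11.9-fold higher in KO (log2 fold change 3.58, SE 0.159), and without any of the libraries in turn the log2 fold change was 3.41 to 3.77. By size it stood at place 104 among the 1398 genes called higher.

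Fabp6 (ENSMUSG00000020405), the bile acid binding protein of the enterocyte cytosol, is at 43596049 to 43601540 on chromosome 11, minus strand. It had 0.898 and 0.539 CPM in KO (54 and 36 counts) and 5.27 and 3.35 CPM in WT (299 and 146 counts). The groups did not overlap, but all values were low and the libraries of each genotype differed among themselves more than they did for Slc10a2. The fitted difference was 6.005-fold lower in KO (log2 fold change -2.59, SE 0.409). Without KO replicate 2 the log2 fold change was -2.26 and edgeR no longer called the gene.

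Within a library the balance of the pair thus differed strongly. Per kilobase of exon, the level of Slc10a2 divided by that of Fabp6 was 6.41 and 10.2 in the KO libraries, against 0.101 and 0.122 in the WT libraries. The lowest KO ratio was 52.4 times the highest WT ratio. This restates the opposite changes of the pair, and its KO values rest on 54 and 36 counts of Fabp6. For Slc10a2 over Slc51b and Slc10a2 over Nr1h4, the lowest KO ratio was 5.60 and 6.35 times the highest WT ratio. On this per-length scale Fabp6 was the more abundant message of the pair in both WT libraries, and Slc10a2 was in both KO libraries. The WT order rests on the exon lengths, 4152 bases for Slc10a2 and 479 for Fabp6. Before that division, WT replicates 1 and 3 had 4.60 and 3.55 CPM of Slc10a2 against 5.27 and 3.35 CPM of Fabp6.

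Slc51a and Slc51b, the subunits that act only as a heteromer to export bile acids, were both higher in KO. Slc51a (ENSMUSG00000035699, chromosome 16, 32474504 to 32487879, minus strand) had 24.0 and 26.3 CPM in KO and 8.51 and 12.1 CPM in WT. The WT pair was the more spread, and neither WT library reached the KO pair. The fitted difference was 2.45-fold higher (log2 fold change 1.29, SE 0.191). Without KO replicate 2 it was 1.23 on the log2 scale and no longer called.

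Slc51b (ENSMUSG00000053862, chromosome 9, 65412714 to 65422955, minus strand) had 54.8 and 54.5 CPM in KO and 29.4 and 23.4 CPM in WT. The KO libraries were nearly equal and lay above both WT libraries. It was 2.07-fold higher in KO (log2 fold change 1.05, SE 0.131), and 0.90 to 1.21 on the log2 scale without any of the libraries in turn. Per kilobase of exon, the ratio of Slc51a to Slc51b was 0.0974 and 0.107 in KO and 0.0642 and 0.114 in WT, so the genotypes overlapped in the balance of the subunits. Neighbouring genes on the other strand share exon bases with each subunit. Pcyt1a covers 17.7% of the Slc51a exons and Rasl12 covers 12.8% of the Slc51b exons, and the sources used here do not say whether counting used strand. Pcyt1a had 90.8 and 80.0 CPM in KO and 87.8 and 85.6 CPM in WT, and Rasl12 had 4.31 and 2.97 CPM in KO and 2.71 and 2.06 CPM in WT. Neither neighbour was called.

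Nr1h4 (ENSMUSG00000047638), the bile acid receptor FXR, is at 89454234 to 89533585 on chromosome 10, minus strand. It had 117 and 112 CPM in KO and 68.6 and 71.4 CPM in WT, with each genotype tightly grouped and no overlap. The fitted difference was 1.64-fold higher in KO (log2 fold change 0.71, SE 0.0689), the smallest of the 4 rises. Its call was kept in each of the 14 alternative fits, as were those of Slc10a2 and Slc51b.

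Of the FXR target genes named above, Slc51a and Slc51b were higher in KO and Fabp6 was lower, while the other 2 targets were at or near 0. Nr0b2 (ENSMUSG00000037583), the FXR-induced corepressor SHP, had no count in any library. The limit set by 3 counts was 0.0236 CPM over the KO libraries and 0.0299 CPM over the WT libraries, which covers counting error only. Fgf15 (ENSMUSG00000031073), the hormone that tells the liver to lower bile acid synthesis, had 5 counts in KO replicate 1 and 0 in KO replicate 2 and both WT libraries. An antisense gene, Gm26793, covers 24.9% of the Fgf15 exons and had 5 counts in each KO library and 0 in each WT library. Reads from the shared exons cannot be told apart without strand, and with counts in a single library the Fgf15 values were too few to be tested.

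The remaining transporters export conjugated bile acids and other organic anions. Abcc3 (ENSMUSG00000020865), the basolateral pump MRP3, had the highest CPM of the members in both genotypes (not corrected for length), with 328 and 324 CPM in KO and 370 and 377 CPM in WT. The groups did not overlap, yet the gap was small (log2 fold change -0.20, SE 0.0521) and edgeR did not call it. With unscaled library totals it was called lower, so that 4 bile acid genes were called higher and 2 lower, against 4 and 1 in the fit as reported. It was also called lower by DESeq2, limma-voom and edgeR's robust fit, and without WT replicate 1. Abcc2 (ENSMUSG00000025194), the apical pump MRP2, had 0.266 and 0.764 CPM in KO and 0.458 and 0.940 CPM in WT. These rest on 16 to 51 counts, and the groups overlapped (log2 fold change -0.43, SE 0.766).

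Gpbar1 (ENSMUSG00000064272) encodes TGR5, the membrane receptor for bile acids, which is known from enteroendocrine cells and macrophages. It had 0.299 and 0.120 CPM in KO and 0.212 and 0.275 CPM in WT, from 8 to 18 counts a library. The groups overlapped (log2 fold change -0.21, SE 0.884). Enteroendocrine markers of the same libraries summed to 653 to 656 CPM in KO and 435 to 494 CPM in WT and had a median log2 fold change of 0.06. Chgb, Chga and Tph1 rose, while the peptide hormone genes Pyy and Insl5 fell 2.61-fold and 3.07-fold (edgeR adjusted p = 0.00150 and 0.00148). Macrophage markers summed to 167 to 172 CPM in KO and 171 to 192 CPM in WT, with a median log2 fold change of 1.34. Cd14, which did not pass, made up most of the macrophage sum.

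**Figure D3:**
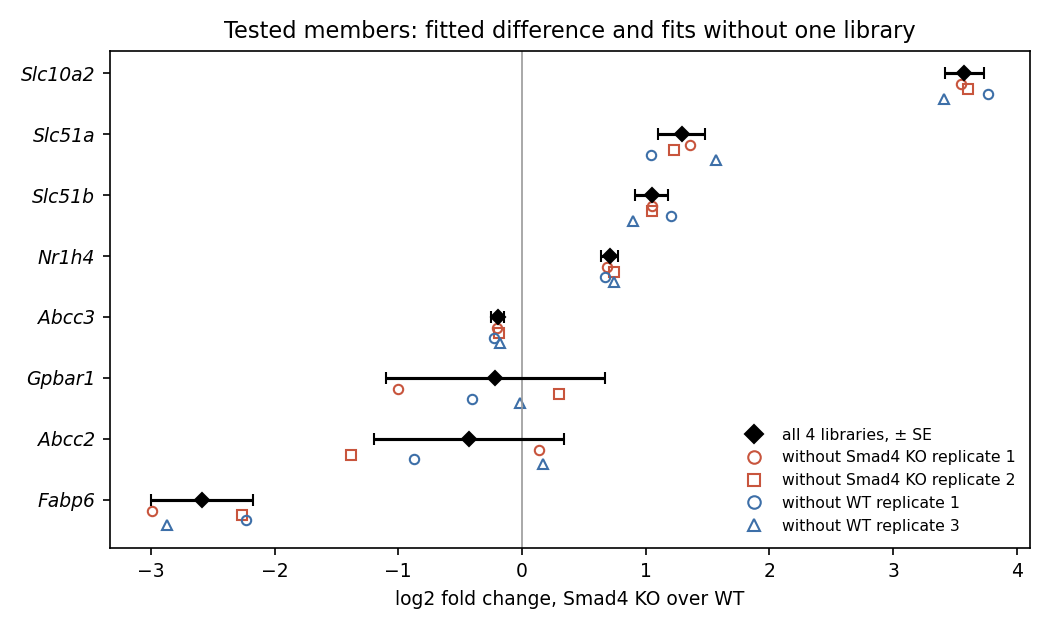
Fitted log2 fold change of the 8 tested genes, Smad4 KO over WT, as black diamonds with bars of 1 SE, and as open symbols for the fits that left out each library. Slc10a2, Slc51a, Slc51b and Nr1h4 stay right of 0 and Fabp6 left of 0 in every fit, whereas Abcc2 and Gpbar1 cross 0.

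Levels of different genes were compared per kilobase of exon. In KO the order was Slc51b with 77.0, Abcc3 with 57.2, Nr1h4 with 49.8, Slc10a2 with 11.8, Slc51a with 7.87, Fabp6 with 1.50, Gpbar1 with 0.195 and Abcc2 with 0.0604 CPM per kilobase. The WT order was Abcc3 with 65.6, Slc51b with 37.3, Nr1h4 with 30.4, Fabp6 with 8.997, Slc51a with 3.22, Slc10a2 with 0.982, Gpbar1 with 0.226 and Abcc2 with 0.0820 CPM per kilobase. Neighbours in these orders did not overlap between their libraries within either genotype. Slc10a2 and Fabp6 had exchanged places, as had Slc51b and Abcc3.

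**Figure D4:**
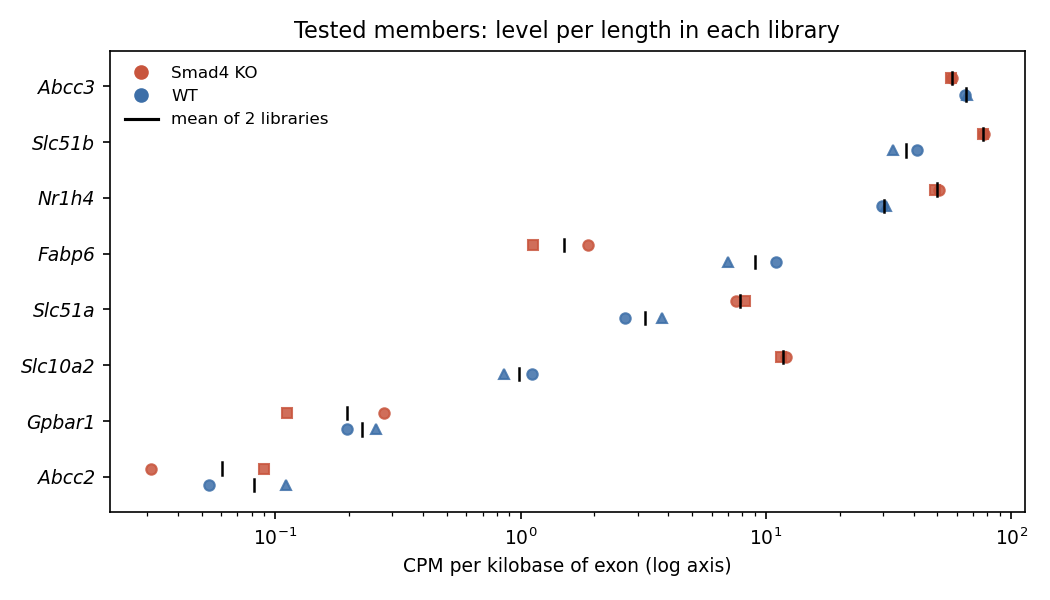
CPM per kilobase of exon on a log axis for the 8 tested genes, with Smad4 KO above WT in each row, 1 point per library and a black bar at the mean of 2 libraries. Slc10a2 has a mean of 11.8 in KO and 0.982 in WT, and Fabp6 has 1.50 in KO and 8.997 in WT.

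The genes with the most similar pattern over the 4 libraries were looked up for the members with the largest differences, by distance between mean-centred log2(CPM + 1) values. Nearest to Slc10a2 were S100a9 (43.3 and 42.6 CPM in KO, 4.44 and 3.37 CPM in WT), Prl2a1 and Ly6d, at distances of 0.134, 0.221 and 0.224. Nearest to Fabp6 were B3gnt5 (23.2 and 18.6 CPM in KO, 78.5 and 52.6 CPM in WT), Lyrm7 and H2-DMb1, at distances of 0.0378, 0.182 and 0.224. With 4 libraries such closeness mainly reflects the difference between genotypes. The 1 added to each CPM shrinks differences at low levels, so near genes can differ in fold change. The log2 fold change was -1.65 for B3gnt5 against -2.59 for Fabp6, and 7.36 for Prl2a1 against 3.58 for Slc10a2.

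Markers of gut region and of other cells moved between the same libraries. Of 13 markers of small intestinal enterocytes, the cells in which Slc10a2 and Fabp6 are best known, 8 were tested, of which 3 rose, 2 fell and 3 did not pass. Their summed level was 375 to 383 CPM in KO and 432 to 434 CPM in WT, the highest being Slc5a1, and Apoa4, Apoc3 and Lct were at 0 in every library. The transporters Slc5a1 and Slc15a1 fell, whereas Fabp2, Alpi and Amn rose, and the median log2 fold change of the 8 was 0.64, opposite in sign to the change of the sum. All 7 tested posterior Hox genes, markers of the distal gut, fell, summing to 97.2 to 99.5 CPM in KO and 559 to 589 CPM in WT. Hoxb13 was the highest and Hoxc13 was at 0. Of 6 neutrophil markers 4 rose, with sums of 108 to 110 CPM in KO and 9.75 to 13.6 CPM in WT, S100a9 as the highest and Mpo at 0. Their part in the bile acid gene differences was not tested.

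Pan-epithelial markers, led by Krt8, summed to 14036 to 14584 CPM in KO and 14428 to 14674 CPM in WT, with 3 of 6 risen and 1 fallen. Absorptive colonocyte markers, led by Car1, summed to 7008 to 7035 CPM in KO and 5194 to 5224 CPM in WT, with 4 of 8 risen and 2 fallen. Goblet markers, led by Muc2, had 1 of 6 risen and 2 fallen, and enteroendocrine markers, led by Chgb, had 3 of 8 risen and 2 fallen. Of 7 fibroblast markers 2 rose (Fbln1 had the highest level). Of 7 macrophage markers 2 rose and of 6 T cell markers 1 rose, but Cd14 and Cd8a, their highest in level, did not pass. Fibroblast markers summed to 51.8 to 57.3 CPM in KO and 26.3 to 26.7 CPM in WT. T cell markers summed to 9.53 to 10.9 CPM in KO and 3.37 to 4.45 CPM in WT. The median log2 fold change was 0.99 for fibroblast and 1.94 for T cell markers. The part of these cells in the bile acid gene differences was not tested. No marker of tuft cells (Dclk1 was the highest), B and plasma cells (Ms4a1), smooth muscle (Tagln) or endothelium (Vwf) passed, so 0 of 16 tested were called by edgeR and 0 by DESeq2, with 3 at an unadjusted p under 0.05. Hepatocyte markers, of which Apob is also made by enterocytes and was the highest, had 1 risen and 1 fallen of 3 tested, with Serpina1a and Fgb at 0.

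The wider bile acid pathway was followed in 65 other genes, listed by role. These lists, like the members, were chosen with earlier results of the same libraries known, so their counts and adjusted p-values are not independent evidence and nothing particular to the lists is read from them. Of the 51 tested, 10 rose, 7 fell and 34 did not pass, a share of 33.3% called beside 15.2% of all tested genes. Their median log2 fold change was -0.02, beside 0.01 for all tested genes. Without KO replicate 1 the call covered 10 of these genes and without KO replicate 2 it covered 11, while the count over all genes was 978 and 975 in those fits against 2412 with all libraries.

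Among 19 other receptors and regulators, 18 were tested, of which 3 rose and 4 fell, with a median log2 fold change of -0.09. Klb, the co-receptor through which the FGF15 hormone acts, had 0.865 and 0.584 CPM in KO and 8.57 and 9.04 CPM in WT. The gene was 12.1-fold lower in KO (log2 difference -3.60, SE 0.27, edgeR adjusted p = 0.00147). Its receptor partner Fgfr4, named after its values were seen, moved the other way, with 55.3 and 60.1 CPM in KO and 39.8 and 40.9 CPM in WT (log2 difference 0.52, SE 0.0855, edgeR adjusted p = 0.0171). The Klb call was kept in each alternative fit, while that of Fgfr4 was lost without KO replicate 1 (edgeR adjusted p = 0.0812) and without KO replicate 2 (edgeR adjusted p = 0.131).

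Malrd1, known in mice as Diet1 and as a gene that affects FGF15 production, rose 3.77-fold (15.2 and 12.7 CPM in KO, 4.18 and 3.19 CPM in WT, edgeR adjusted p = 0.00423). Vdr, the vitamin D receptor, which also senses a secondary bile acid, fell 1.56-fold (238 and 244 CPM in KO, 372 and 380 CPM in WT, edgeR adjusted p = 0.00205). Nr1h3, the oxysterol receptor LXR alpha, fell 1.82-fold (10.4 and 9.52 CPM in KO, 19.1 and 17.3 CPM in WT, edgeR adjusted p = 0.0115), a call lost without KO replicate 1 or KO replicate 2 (edgeR adjusted p = 0.0564 and 0.0870). The transcription factor Maf, named after its values were seen, rose 3.26-fold (5.60 and 8.57 CPM in KO, 1.83 and 2.52 CPM in WT, edgeR adjusted p = 0.0220). That call was lost without WT replicate 1 (edgeR adjusted p = 0.0601) and without KO replicate 2 (edgeR adjusted p = 0.113).

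Of 15 other transport genes, 11 were tested, of which 2 rose and 1 fell, with a median log2 fold change of 0.10. Slco3a1, an organic anion transporter, rose 6.16-fold (3.83 and 4.48 CPM in KO, 0.723 and 0.619 CPM in WT, edgeR adjusted p = 0.00471). Abcg5, which with Abcg8 exports sterols, fell 2.61-fold (5.95 and 6.11 CPM in KO, 13.4 and 18.1 CPM in WT, edgeR adjusted p = 0.00875). Leaving out KO replicate 1 or KO replicate 2 ended that call (edgeR adjusted p = 0.0553 and 0.0528). Abcg8 had 2.03 and 4.03 CPM in KO and 8.04 and 7.34 CPM in WT and did not pass (edgeR adjusted p = 0.0634). It was called lower in 6 of the 14 alternatives, with DESeq2 (adjusted p = 0.00533), edgeR's likelihood ratio test (adjusted p = 0.00787), limma-voom, edgeR's robust fit, no filter on low counts and without KO replicate 2 (edgeR adjusted p = 0.0279). Over the alternatives its log2 fold change ranged from -1.92 to -0.93. Abcg2, an apical exporter of many compounds, rose 1.27-fold (101 and 96.9 CPM in KO, 75.3 and 81.3 CPM in WT, edgeR adjusted p = 0.0406). The Abcg2 call was lost with library totals, by edgeR's likelihood ratio test, without WT replicate 1 and when KO replicate 1 or KO replicate 2 was left out (edgeR adjusted p = 0.0687 to 0.244). The liver uptake gene Slco1a1 was at 0 in every library.

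Of 16 synthesis genes, 9 were tested, of which 1 fell and 8 did not pass, with a median log2 fold change of -0.11. Cyp39a1, an oxysterol hydroxylase, had 9.95 and 10.8 CPM in KO and 19.8 and 21.1 CPM in WT (1.96-fold lower, edgeR adjusted p = 0.00634), a call lost without KO replicate 1 (edgeR adjusted p = 0.0501). Cyp27a1, the first enzyme of the alternative route, had 15.3 and 12.8 CPM in KO and 18.5 and 19.1 CPM in WT and did not pass (edgeR adjusted p = 0.0939). Neither Amacr nor Acox2, peroxisomal enzymes of the side chain, passed (log2 fold changes -0.26 and 0.50, edgeR adjusted p = 0.323 and 0.367). Cyp7a1, the rate-limiting enzyme of the liver, Cyp2c70 and Slc27a5 had no count in any library.

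Of 7 detoxification genes, 5 were tested and 1 rose, with a median log2 fold change of 0.20. Ugt1a1, a glucuronidating enzyme, had 191 and 190 CPM in KO and 102 and 74.0 CPM in WT (2.17-fold higher, edgeR adjusted p = 0.00983). It shares exons with the other Ugt1a genes, so its counts are uncertain. Sult2b1 and Cyp3a13 did not pass (log2 fold changes -0.47 and 0.08, edgeR adjusted p = 0.0680 and 0.537), nor did Cyp3a25 (2.93 and 2.20 CPM in KO, 0.564 and 0 CPM in WT, edgeR adjusted p = 0.154). Sult2b1 was called lower by DESeq2 (adjusted p = 0.0191). Cyp3a25 was called higher without WT replicate 1 (edgeR adjusted p = 0.00757), where the remaining WT library had no count, and without WT replicate 3 (edgeR adjusted p = 0.0410, log2 fold change 2.18).

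Of 8 further genes described as FXR targets, all were tested, 4 rose and 1 fell, with a median log2 fold change of 0.45. Nos2, the inducible nitric oxide synthase, had 663 and 676 CPM in KO and 89.4 and 85.7 CPM in WT (7.65-fold higher, edgeR adjusted p = 4.92e-05). Carbonic anhydrase Car12 rose 2.17-fold and the lipoprotein receptor Vldlr 2.08-fold (edgeR adjusted p = 0.00135 and 0.00286). Interleukin Il18 fell 1.81-fold, with 63.0 and 59.4 CPM in KO and 107 and 114 CPM in WT (edgeR adjusted p = 0.00235). Nos2 is also induced in inflamed tissue, and the neutrophil marker S100a9 differed between the same libraries, with 43.3 and 42.6 CPM in KO and 4.44 and 3.37 CPM in WT. Its part in the result was not tested.

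**Figure D5:**
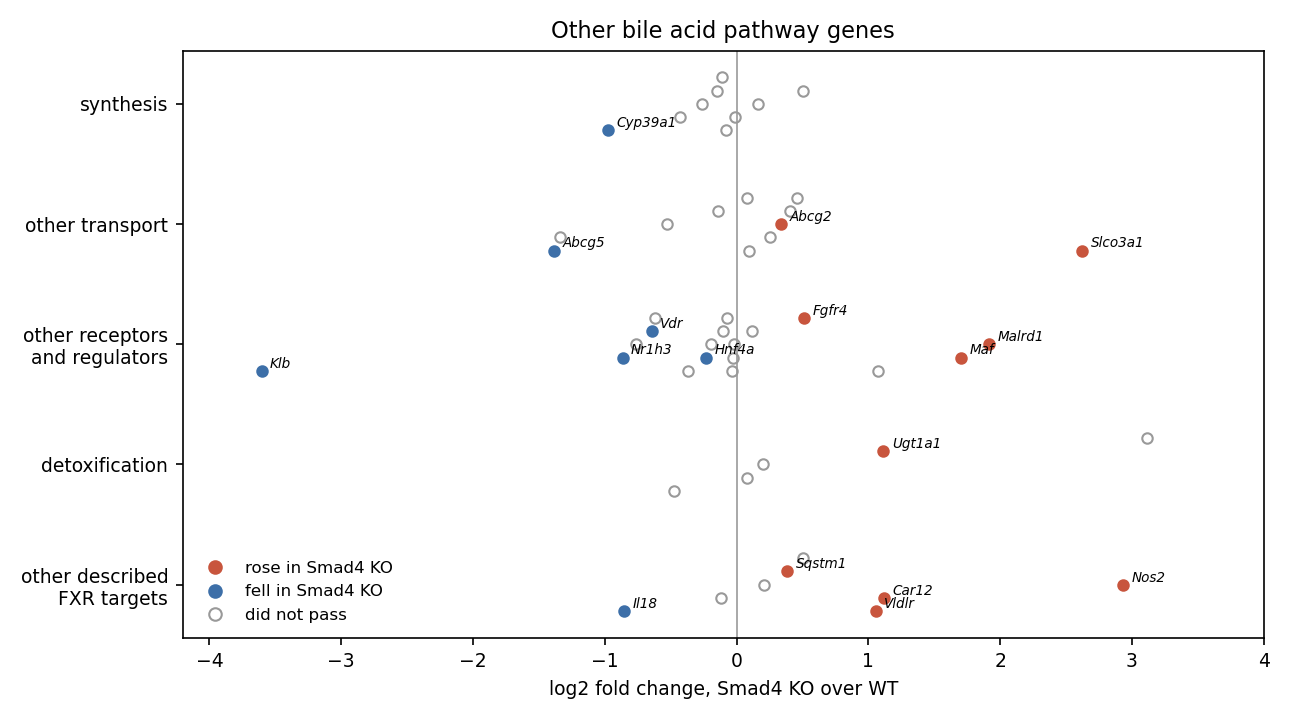
Log2 fold change, Smad4 KO over WT, of the 51 tested genes of the wider bile acid pathway by list, with filled points for genes that rose or fell by edgeR's test and open points for the rest. Klb lies farthest left at -3.60, and Nos2 at 2.93 lies farthest right of the called genes.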

How the data were processed

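The authors deposited whole-number counts per Ensembl gene, not normalized, for 4 libraries; 0 columns were left unmatched. The submitters' processing notes name the build GRCm38 (mm10) and the tools HISAT2 2.1.0, StringTie 1.3.3b, SAMtools 1.9 and FastQC 0.19.7, without roles. The sources used here do not say which tool counted, with which annotation release and strand setting, or what became of reads matching several genes. Per the labels' protocols, random hexamers primed cDNA from 1.5 µg of RNA.

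GENCODE M21 named 31207 of 31227 IDs and gave positions and exon lengths (merged over transcripts). Counts passing filterByExpr were TMM-normalized and tested with edgeR 4.0.16 (R 4.3.3, quasi-likelihood, genotype only), adjusted over all tested genes by Benjamini and Hochberg, with calls at 0.05. SE is the log2 fold change divided by the square root of F. CPM uses TMM-scaled totals. The fit was run on simulated counts only to check the code, and no result here rests on that run.

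Members and lists were chosen with earlier results of these data known. Named were all members and up to 4 genes with the smallest p from each of the 5 pathway lists. The highest gene of each marker list, Smad4 and the 3 nearest patterns of 2 members were also named. Fgfr4 and Maf were added after their values were seen. So were the other called genes of the enteroendocrine and small intestinal enterocyte lists, Pyy and Insl5 among them, and genes with no count. Alternatives were other normalizations, filters, tests (DESeq2 1.42.0, limma 3.58.1), dropping the 20 most abundant genes, and dropping each library in turn. Promoter sequences are RefSeq's on GRCm38.p6.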

Additional observations from a re-analysis of the deposited data

How the results depend on the processing

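Over 14 alternatives, 6 of the 8 tested bile acid genes kept their direction (all but Abcc2 and Gpbar1), and Slc10a2, Slc51b and Nr1h4 also kept their calls. Abcc3, at -0.25 to -0.18 on the log2 scale, was called lower in 5 alternatives. Without each library, the log2 fold change of Abcc2 ranged from -1.38 to 0.17 (0.17 without WT replicate 3, 0.14 without Smad4 KO replicate 1, -0.43 with all libraries). That of Gpbar1 ranged from -1.0005 to 0.30 (0.30 without Smad4 KO replicate 2, -0.21 with all libraries). The filter of 1 CPM removed both. Counts of called genes over the fits without each library ranged from 3 to 6 for the bile acid genes (3 without Smad4 KO replicate 2), from 10 to 21 for the 65 other pathway genes and from 975 to 2573 for all genes. A lone library in a genotype was assumed to vary like the pair in the other. Scaling by library totals moved the median log2 fold change of all genes to -0.04, a shift of -0.05, and turned the direction of none of the 8 tested bile acid genes nor of the called pathway genes named with values. Low counts limit Abcc2, Gpbar1 and Fgf15, and Nr0b2 had no count in any library. No paired analysis was possible because the sources used here give no pairing of libraries between the genotypes.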
